A study of Arabidopsis thaliana with 12 samples.

Results

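Aluminium (Al) changes the expression of many genes in a root, and the question here was gene by gene whether that change differed in size between *Arabidopsis thaliana* plants that overexpress the soybean gene *GmNTL4* (OX) and the wild type (WT). The measure is the interaction, the log2 Al response in OX (Al minus control) minus the log2 Al response in WT, so a positive value means that Al moved the gene further up, or less far down, in OX than in WT. It was computed on log2(FPKM + 0.5), where FPKM is the number of fragments scaled to transcript length and library total. Of 25872 genes in the table, the 20773 that reached 0.5 FPKM in 3 or more libraries entered it. A fold change on this scale understates the change of genes with low FPKM. Root RNA was sequenced in 12 libraries, all of them used here, in 4 groups of 3: OX with Al, OX without Al (CK in the labels, called control here), WT with Al and WT control. *GmNTL4* stood under the constitutive 35S promoter. The study selected 2 OX lines, and the labels do not say which of them was sequenced. The methods give 5 µM Al for 48 h in a dilute nutrient solution at low pH without phosphate, while the labels of the Al libraries give 24 h. The seedlings' separate cultures are not described, so p-values measure the spread between these libraries, which may be technical.

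Al dissolves as a toxic ion in acid soil, binds to the pectin and hemicellulose of the root cell wall and stops root elongation. Roots answer by exporting malate and citrate, which bind the ion, through transporters such as ALMT1 and MATE that the zinc finger factor STOP1 switches on, and by remodelling the wall. GmNTL4 is a NAC transcription factor with a membrane anchor, a kind that is released by cleavage and moves to the nucleus. Root hairs, to which the largest group difference below belongs, are tubular outgrowths of single epidermal cells. The bHLH factors RHD6, RSL2 and RSL4 control their start and growth. Expansins, extensins, proline-rich wall proteins, peroxidases and an NADPH oxidase build the growing tip.

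The libraries held 16162941 to 17136217 fragments on genes (16238591 to 16593707 in OX Al and 16792615 to 16807682 in WT Al roots, which do not overlap) and correlated at 0.951 to 0.983 within groups. The labelled tissue was checked against markers. The endodermal *SCR* and *MYB36*, the meristem factor *PLT1* and the phloem transporter *SUC2* were at or above 4.82 FPKM in every library. Other root markers were lower. The meristem marker *PLT2* ran from 1.978 to 3.848 FPKM, and none of the 4 root cap markers passed 1.751 FPKM. The Casparian strip gene *ESB1* stayed at or under 0.391 FPKM. Of the stomatal lineage *FAMA*, *EPF1* and *SDD1* reached at most 0.144 FPKM, *SPCH* 0.277 FPKM and *TMM* 0.89 FPKM. Shoot epidermis markers were not all low. *PDF1* and *FDH* were at or above 15.46 FPKM in every library, *LTP1* at or above 5.26 FPKM and *KCS6* at or above 2.322 FPKM. Lower were *ATML1*, at 0.57 to 2.58 FPKM, and *CER1*, at 0.052 to 0.60 FPKM. The 19 antenna genes that mark green tissue had a summed level of 213 to 288 FPKM in OX Al and 137 to 195 FPKM in OX control roots, against 159 to 766 FPKM in WT Al and 152 to 481 FPKM in WT control roots. WT Al replicates 2 and 3 and WT control replicate 1 stood apart as high. The transgene itself was not analysed here.

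Taken gene by gene, no interaction passed the test. Calls required an adjusted p no larger than 0.05 together with a log2 size no smaller than 1 (limma, Benjamini-Hochberg over the genes tested), and 0 genes (0% of those tested) were called, the smallest adjusted p being 0.913. At an unadjusted p under 0.05 there were 1035 genes, 4.98% of those tested, of which 531 had a higher and 504 a lower Al response in OX. That number was 1728 without WT control replicate 1, 673 without WT control replicate 3 and 1963 without the first control replicate of both genotypes. The voom method on fragments read back from the FPKM also called 0, with 1036 genes at an unadjusted p under 0.05. The median standard error of an interaction was 0.26 on the log2 scale, at which a gene needs a log2 difference of 0.56 to reach an unadjusted p of 0.05. As a second description, in 434 genes (2.09%) each of the 9 differences between an OX Al and an OX control library lay on one side of all 9 differences between a WT Al and a WT control library; these are called separated below, 210 of them higher and 224 lower in OX (1.08% lower). None of the interaction values given below for single genes is a call, and their adjusted p was 0.913 or more (limma).

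Within each genotype Al did change genes. In OX, 59 genes rose and 120 fell (179 called, 0.862% of those tested), and in WT 34 rose and 35 fell (69 called, 0.332%), both from limma with Benjamini-Hochberg adjustment. The 34 genes called in both genotypes moved the same way in both, with median log2 responses of 2.07 in OX and 2.08 in WT among risers and of -1.45 in OX and -1.30 in WT among fallers. Of the 145 genes called in OX alone, 136 had the same sign in WT, and all 35 called in WT alone had it in OX. Across all genes tested the OX and WT responses, which share no library, had a Pearson correlation of 0.528, and of 0.42 without the first control replicate of both genotypes; genes are not independent replicates. Their spread was alike, with an SD over genes of 0.405 in OX and 0.387 in WT, and a log2 response of at least 1 in size was found for 782 genes in OX and 665 in WT. These counts of calls rest on single libraries, and the difference between them was not tested. Without OX Al replicate 2 only 3 genes were called in OX, without OX Al replicate 3 there were 12, and without OX Al replicate 1 there were 490. Leaving out OX control replicate 1, 2 or 3 left 45, 15 and 31 calls in OX. In WT, 0, 2 and 29 calls were left without WT Al replicate 1, 2 or 3 and 1 call without WT control replicate 3; through the shared estimate of the spread, 152 were found without OX Al replicate 1 and 42, 42 and 39 without OX Al replicate 2, OX control replicate 2 and OX control replicate 3.

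**Figure D1:**
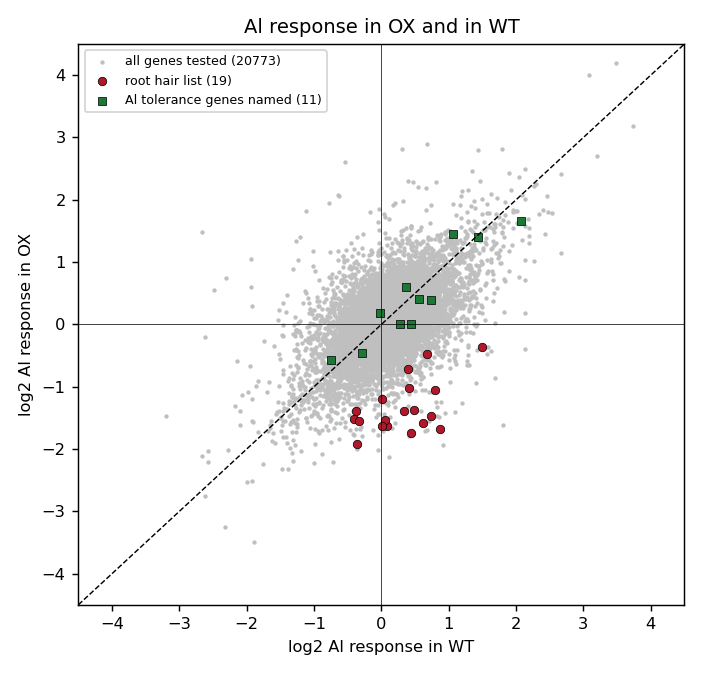
Log2 Al response of each gene in OX (vertical axis) against that in WT (horizontal axis), on log2(FPKM + 0.5), with 1 point per gene and the dashed line where both are equal. All 19 root hair genes (red) lie below the line, with the OX response below 0, while the named Al tolerance genes (green) lie near it.

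The gene list with the largest median interaction in size was that of root hair genes. All 19 listed members were tested and all 19 had a lower Al response in OX than in WT, where 54.6% of all genes did. The median interaction was -1.63 on the log2 scale, against -0.03 over all genes tested. Of the 19, 17 had an unadjusted p under 0.05 on the lower side, which 2.43% of all genes had, 7 were separated on the lower side (1.08% of all genes), and 0 were called. The members were read from the same 12 libraries and are not independent replicates, so these counts are a description and not a test. The list was chosen with earlier results of these data known. The median log2 Al response was -1.48 in OX, where all 19 were below 0, and 0.40 in WT, where 4 were below 0. Within OX, *RHS19*, *RHS15* (*G3Pp2* in the annotation), *EXPA18* and the oxidase gene *RHD2* fell with Al (0.578% of all genes were called lower there), and none of the 19 was called in WT. The OX calls held with 1 library left out in 6 of 12 cases for *RHS19*, 2 of 12 for *RHS15*, 3 of 12 for *EXPA18* and 7 of 12 for *RHD2*. In control roots the 19 genes lay higher in OX than in WT, with a median log2 difference of 1.08 and 19 of 19 above 0, and under Al they lay lower in OX, with a median of -0.65 and 19 of 19 below 0. No member was called in either comparison, and both share libraries with the interaction.

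Several of these genes share a short regulatory element, shown here because it is a feature of the genes that the interaction did not use. The root hair element (RHE) is a promoter motif that hair cell genes of Arabidopsis carry and that RSL4-type bHLH factors bind. The *RHS* genes were partly found through it, so its share in this list is partly fixed by how such members were chosen. Its letters, on either strand, occurred within the 500 bases before the annotated gene start in 11 of the 19 root hair genes (57.9%) and in 301 of the 20585 tested genes with such a window (1.46%). Of the separated genes they occurred in 10 of 224 on the lower side (4.46%), among them *PRP3*, *PRP1* and *LRX1* of the list, and in 4 of 208 on the higher side (1.92%). They were in none of the 13 endodermal, 26 pectin enzyme and 17 Al tolerance promoters. Windows of 40 bases around the element, in RefSeq TAIR10.1 and on the strand of the gene, are given with the element in capitals for 3 wall protein genes and 3 others of the list.
*PRP3*, chr3:23182543-23182582 (+): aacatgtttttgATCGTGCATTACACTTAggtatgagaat
*PRP1*, chr1:20504760-20504799 (+): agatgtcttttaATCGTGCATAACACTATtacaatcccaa
*LRX1*, chr1:4069887-4069926 (+): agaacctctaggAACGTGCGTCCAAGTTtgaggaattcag
*EXPA7*, chr1:4276415-4276454 (+): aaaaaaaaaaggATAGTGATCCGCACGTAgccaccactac
*EXPA18*, chr1:23331511-23331550 (+): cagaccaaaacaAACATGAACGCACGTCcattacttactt
*RHS15*, chr4:12920624-12920663 (+): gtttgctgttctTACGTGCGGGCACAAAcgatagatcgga
The element lay on the opposite strand in *PRP3*, *PRP1*, *LRX1* and *RHS15*. A match of letters is a description and does not show that a factor binds there.

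Among structural wall proteins of the hair, *PRP3* (AT3G62680, a proline-rich protein) had 19.9, 6.0 and 9.07 FPKM in OX Al and 34.2, 34.1 and 34.7 FPKM in OX control roots, and 21.2, 14.3 and 25.6 FPKM in WT Al and 13.5, 15.9 and 5.50 FPKM in WT control roots. All OX Al libraries were thus below all OX control libraries, while the WT groups overlapped. Its interaction was -2.55 (SE 0.60, unadjusted p = 0.0014, limma), made of -1.69 in OX and 0.87 in WT. *PRP1* (AT1G54970) had 3.91, 2.15 and 2.42 FPKM in OX Al and 7.78, 10.09 and 7.87 FPKM in OX control, and 5.77, 3.29 and 5.38 FPKM in WT Al and 3.82, 3.71 and 1.18 FPKM in WT control roots. The interaction of *PRP1* was -2.21 (SE 0.50), and it had the smallest p of the list. *LRX1* (AT1G12040), a leucine-rich repeat extensin needed for the hair wall, had 6.29, 2.68 and 3.98 FPKM in OX Al and 12.5, 12.5 and 14.7 FPKM in OX control, and 7.53, 4.18 and 9.43 FPKM in WT Al and 5.82, 5.4 and 2.3 FPKM in WT control roots. Its interaction was -2.19 (SE 0.52), and that of the related *LRX2* was -1.86 (SE 0.53), where the larger share came from WT (1.5, against -0.37 in OX).

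Genes that loosen or crosslink the wall gave like values. *EXPA7* (AT1G12560), an expansin of hair cells, had 16.5, 7.83 and 6.61 FPKM in OX Al and 28, 30.02 and 34.0 FPKM in OX control, and 15.0, 12.2 and 10.13 FPKM in WT Al and 22.4, 10.8 and 6.23 FPKM in WT control roots. The OX groups did not overlap and the WT groups did, and the interaction was -1.72 (SE 0.57). *RHS19* (AT5G67400), a peroxidase, fell in OX with Al by 1.92 on the log2 scale (adjusted p = 0.0367, limma), to 17.2, 5.70 and 9.62 FPKM in OX Al, against 34.0, 35.6 and 47.7 FPKM in OX control roots, and had 18.8, 8.77 and 16.4 FPKM in WT Al and 24.0, 18.0 and 13.7 FPKM in WT control roots. *RHD2* (AT5G51060, also *RBOHC*), the NADPH oxidase that makes reactive oxygen at the tip, had 9.73, 4.53 and 5.32 FPKM in OX Al and 17.1, 16.9 and 16.9 FPKM in OX control, and 11.7, 8.85 and 13.9 FPKM in WT Al and 15.2, 14.5 and 14.7 FPKM in WT control roots. *RHD2* was separated (interaction -1.01, SE 0.33), and unlike most of the list it was lower with Al in every library of both genotypes; it fell by 1.38 on the log2 scale in OX (adjusted p = 0.0231, limma) and the WT value was -0.38 (adjusted p = 0.557). *SHV2* (AT5G49270, also *COBL9*), a membrane-anchored protein of the COBRA family, had an interaction of -1.84 (SE 0.46), with every OX Al library below every OX control library and every WT Al library above every WT control library.

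The regulators had lower responses in OX as well. *RSL4* (AT1G27740), the factor that sets hair growth, had 2.03, 1.47 and 1.49 FPKM in OX Al and 3.23, 4.99 and 8.07 FPKM in OX control, and 3.65, 2.76 and 2.85 FPKM in WT Al and 3.43, 3.59 and 0.538 FPKM in WT control roots, with an interaction of -1.86 (SE 0.66). The interaction was -1.21 for *RSL2* (SE 0.62) and -1.16 for *RHD6* (SE 0.45), which starts hair formation and had the smallest Al response in OX of these 3 factors (-0.48, against 0.68 in WT). *RSL2* and *RHS13* were the 2 members with an unadjusted p of 0.05 or more. The other 8 members, among them the protein kinase gene *IRE* and *PERK13*, a receptor kinase gene also named *RHS10*, ranged from -2.18 for *RHS12* to -1.10 for *RHS13*.

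By library, the mean of log2(FPKM + 0.5) over the 19 genes was 2.42, 1.51 and 1.71 in OX Al and 2.96, 3.16 and 3.52 in OX control roots, and 2.71, 2.04 and 2.67 in WT Al and 2.54, 2.35 and 1.61 in WT control roots. OX Al replicate 1 lay above, and WT Al replicate 2 and WT control replicate 3 below, the others of their groups. With any 1 library left out the median interaction stayed between -1.92 and -1.36, with 19 of 19 members below 0 each time. The low end was without OX Al replicate 1 and the high end without WT control replicate 3. In a bulk root sample, fewer hair cells and less RNA per hair cell cannot be told apart. Summed over the 3 meristem markers *PLT1*, *PLT2* and *WOX5*, the level was 12.3 to 16.9 FPKM in OX Al and 13.0 to 16.4 FPKM in OX control, and 11.9 to 13.2 FPKM in WT Al and 10.3 to 14.1 FPKM in WT control roots. The 4 root cap markers summed to 1.94 to 3.14 FPKM in OX Al and 2.13 to 4.97 FPKM in OX control, and to 2.80 to 4.26 FPKM in WT Al and 1.32 to 4.15 FPKM in WT control roots. Both sets of ranges overlapped between OX Al and OX control. So did those of the 3 xylem markers, at 11.63 to 29.82 FPKM in OX Al and 18.02 to 32.51 FPKM in OX control. The ranges of the endodermis and phloem markers did not overlap between these groups. The 7 endodermis markers summed to 81.6 to 102 FPKM in OX Al and 105 to 118 FPKM in OX control, and to 89.0 to 135 FPKM in WT Al and 70.3 to 174 FPKM in WT control roots. The phloem markers *APL* and *SUC2* summed to 38.02 to 42.1 FPKM in OX Al and 30.6 to 36.5 FPKM in OX control, and to 33.3 to 36.0 FPKM in WT Al and 25.6 to 33.7 FPKM in WT control roots. Markers of shoot epidermis, given below, were higher in OX Al than in OX control roots as well. The part of cell makeup in the result was not tested.

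**Figure D2:**
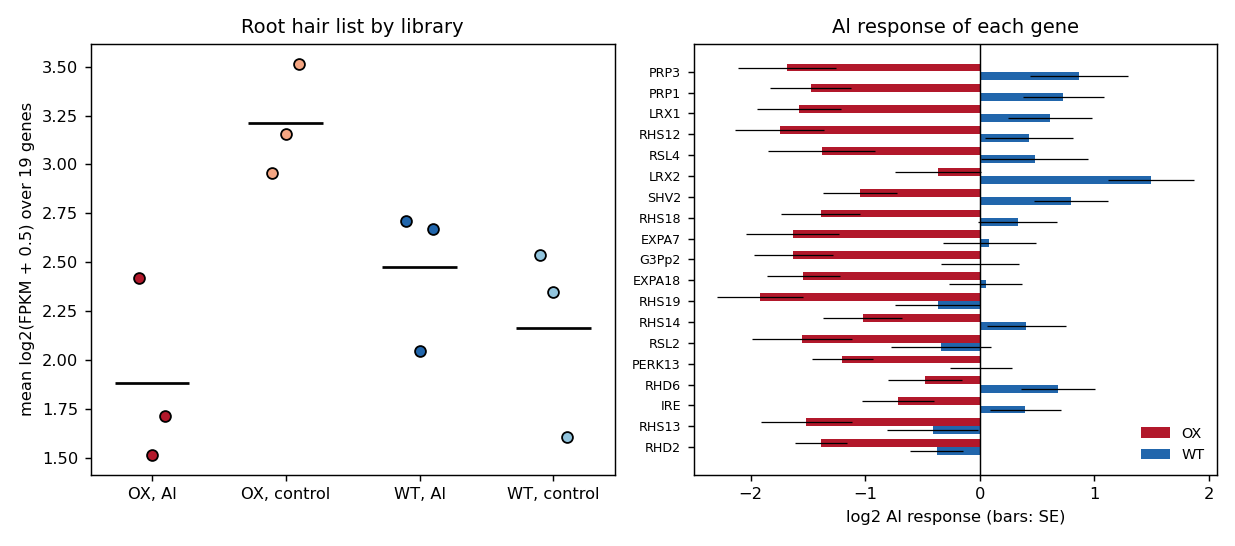
Left, mean log2(FPKM + 0.5) of the 19 root hair genes in each library (points) with the group mean (line); the OX Al libraries lie between 1.51 and 2.42 and the OX control libraries between 2.96 and 3.52, while the WT groups overlap. Right, log2 Al response of each gene in OX and in WT with its standard error; all 19 OX values are below 0, and 15 of the WT values are above 0.

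The 10 genes with the smallest p among those with a lower Al response in OX included 2 of the root hair list. Under the naming rule they were *TLP-3*, AT2G01275, *XTH13*, *FLA6*, *LAC3*, *EXT6*, *PRP1*, AT1G30870, AT5G19800 and *PRP3*. *XTH13* (AT5G57540), of the enzymes that cut and rejoin xyloglucan, had 1.3, 0.277 and 0.927 FPKM in OX Al and 3.26, 2.68 and 2.56 FPKM in OX control, and 1.99, 1.18 and 1.61 FPKM in WT Al and 1.11, 0.844 and 0.703 FPKM in WT control roots. Al libraries were on opposite sides of the controls in the genotypes, lower in OX and higher in WT, and the interaction was -1.98 (SE 0.41). *XTH13* fell in OX (adjusted p = 0.0473, limma), a call that held in 2 of 12 cases with 1 library left out. *LAC3* (AT2G30210), a laccase, which oxidises phenolic compounds in the wall, had 21.1, 19.5 and 22.2 FPKM in OX Al and 39.3, 28.2 and 39.8 FPKM in OX control, and 30.4, 28.6 and 29.8 FPKM in WT Al and 28.1, 20.7 and 15.0 FPKM in WT control roots. It too went opposite ways, with an interaction of -1.26 (SE 0.28). *FLA6* (AT2G20520), a fasciclin-like arabinogalactan protein, fell in OX by 1.79 on the log2 scale (adjusted p = 0.029, limma; held in 7 of 12 cases) and the extensin gene *EXT6* (AT2G24980) had an interaction of -2.35 (SE 0.53).

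*TLP-3* (AT1G75030), a thaumatin-like protein, differed from these in that its response was an Al rise. It had 11.3, 19.7 and 19.6 FPKM in OX Al and 9.55, 9.39 and 10.5 FPKM in OX control, and 20.7, 20.9 and 18.9 FPKM in WT Al and 3.41, 4.19 and 5.17 FPKM in WT control roots. It rose in WT by 2.13 on the log2 scale (adjusted p = 0.00741, limma), a call that held in 11 of 12 cases with 1 library left out, and in OX the value was 0.71 (adjusted p = 0.119). Only the Al groups of the genotypes overlapped, and OX control was above WT control. The interaction was -1.42 (SE 0.28) and gave the smallest p on the lower side.

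**Figure D3:**
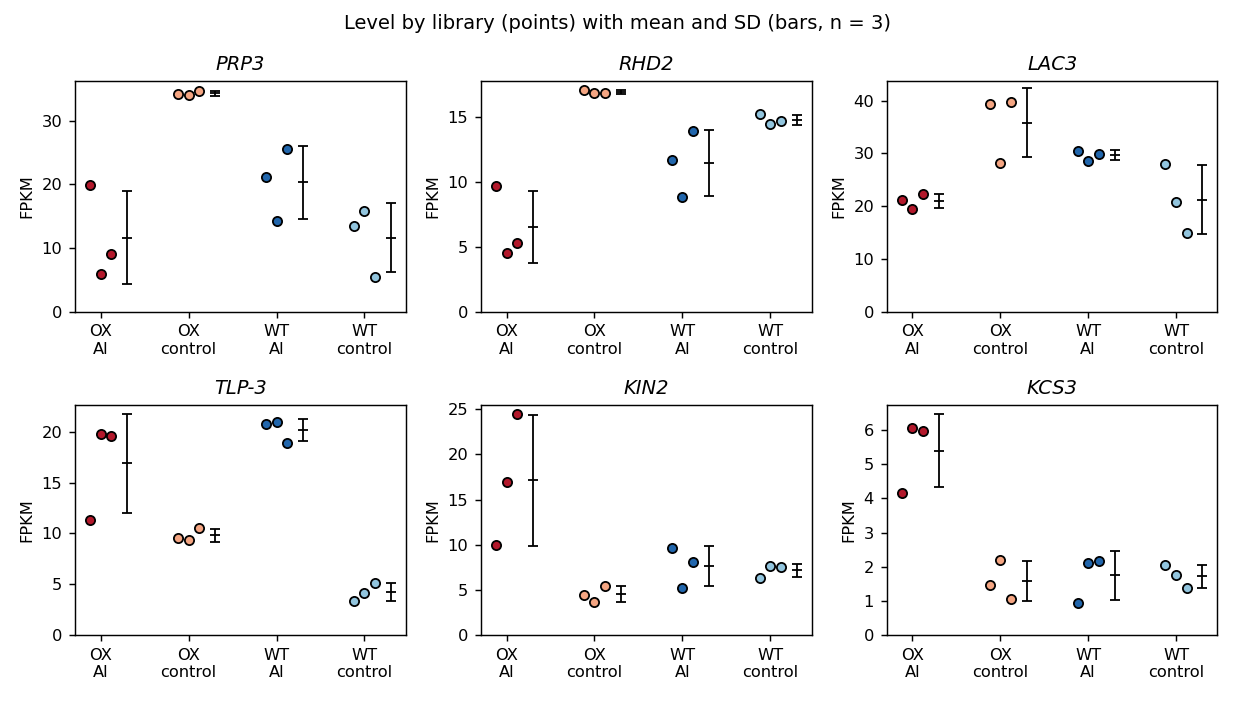
FPKM of 6 genes in each library (points), with the mean and SD of each group (n = 3). *PRP3*, *RHD2* and *LAC3* are lower with Al in OX, *TLP-3* starts from 9.39 FPKM or more in OX control roots and at most 5.17 FPKM in WT control roots, and *KIN2* and *KCS3* are higher with Al in OX.

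Among lists of wall and barrier genes, those of the endodermis and of pectin enzymes had the lowest medians after the root hair list and the study's own genes. All 13 endodermis and Casparian strip genes tested, of 14 listed, had an interaction below 0, with a median of -0.58 (median Al response -0.24 in OX and 0.32 in WT), and 1 had an unadjusted p under 0.05. That was *MYB36* (AT5G57620), the factor that starts the Casparian strip, with 11.8, 12.5 and 13.3 FPKM in OX Al and 15.4, 15.7 and 17.5 FPKM in OX control, and 14.2, 13.8 and 15.2 FPKM in WT Al and 15.2, 13.1 and 10.02 FPKM in WT control roots (interaction -0.54, SE 0.19). The strip scaffold gene *CASP1* and the peroxidase gene *PER64* had wider errors, with -0.63 (SE 0.52) and -0.56 (SE 0.55), their WT control levels running from 26.6 to 86.8 FPKM and from 12.1 to 37.3 FPKM. Of 26 pectin enzyme genes, 21 were below 0, 4 with an unadjusted p under 0.05, and the median was -0.55 (0.00 in OX and 0.44 in WT). This list shares *PME25*, *PME59*, *PME60*, AT3G59850 and AT2G33160 with the genes that the study chose on these same libraries. *PME25* and *PME59* were among the 4, and the direction of such shared members is not independent evidence. *PME25* (AT3G10720), a pectin methylesterase gene, had 18.5, 13.7 and 17.7 FPKM in OX Al and 47.3, 13.7 and 22.1 FPKM in OX control, and 35.4, 28.2 and 46.4 FPKM in WT Al and 31.7, 13.6 and 10.9 FPKM in WT control roots. Control replicate 1 was high in both genotypes, and the interaction was -1.62 (SE 0.62). Of 12 cellulose synthase and related genes, 10 were below 0 (median -0.30, and -0.51 without WT control replicate 1), with *CESA5* at -0.41 (SE 0.17). Of 25 XTH genes, 16 were below 0, 4 with an unadjusted p under 0.05, and the median was -0.05, near the 54.6% below 0 and the median of -0.03 over all genes; it was -0.002 without OX Al replicate 1 and -0.27 without WT Al replicate 2. Class III peroxidases were below 0 in 37 of 54, 6 of them with an unadjusted p under 0.05, with a median of -0.20, and AT1G30870 had the smallest p (interaction -1.79, SE 0.42) and fell in OX (adjusted p = 0.0315, limma), a call that held in 6 of 12 cases with 1 library left out.

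Genes of the Al tolerance list, which include potassium transport and metabolic genes such as *HAK5* and *GDH2*, leaned to neither side. Of the 17 tested, 8 had an interaction above and 9 below 0, and 0 had an unadjusted p under 0.05. The median interaction was -0.02, with median Al responses of 0.41 in OX and 0.47 in WT. With 1 library left out the median interaction ran from -0.29 to 0.23. The malate transporter gene *ALMT1* (AT1G08430) had 208, 385 and 320 FPKM in OX Al and 30.0, 165 and 161 FPKM in OX control, and 314, 209 and 214 FPKM in WT Al and 15.7, 95 and 121 FPKM in WT control roots. Both genotypes were higher with Al in every library, with an interaction of -0.41 and a standard error of 1.08, so that even a large difference was not detectable in these libraries. The first control replicate of each genotype was far below the others, and also for *HAK5*, a potassium transporter gene, with 47.6, 377 and 480 FPKM in OX control and 11.5, 318 and 380 FPKM in WT control roots, against 164 to 274 FPKM in OX Al and 139 to 165 FPKM in WT Al roots. *ALS3* (AT2G37330), a transporter-like protein named for the Al-sensitive mutant, had 63.5, 83.6 and 72.4 FPKM in OX Al and 8.92, 38.9 and 51.8 FPKM in OX control, and 44.5, 38.4 and 33.9 FPKM in WT Al and 6.84, 23.1 and 37.4 FPKM in WT control roots (interaction 0.38, SE 0.90). The citrate transporter gene *MATE* (AT1G51340) was at -0.02 (SE 1.36). Tighter values came from *RAE1*, an F-box gene that acts on STOP1 (-0.27, SE 0.20), the protein kinase gene *CIPK23* (0.20, SE 0.19), the ABC transporter gene *ABCI17* (0.17, SE 0.22), the glutamate dehydrogenase gene *GDH2* (0.24, SE 0.32), *STOP2* (-0.16, SE 0.25), the GABA transaminase gene *POP2* (-0.15, SE 0.32) and *WRKY46* (-0.35, SE 0.57).

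The 17 genes that the study singled out were chosen by it on these same libraries, so their direction here is not independent evidence. Of them 14 were below 0 and 3 above, with a median of -0.78 (-0.01 in OX and 0.67 in WT), and 3 had an unadjusted p under 0.05. The median was -1.03 without WT control replicate 1 and -0.30 without WT control replicate 3. *DTX14* (AT1G71140), a MATE family transporter gene, rose with Al in both, by 1.64 in OX (adjusted p = 0.0196, limma) and by 1.89 in WT (adjusted p = 0.0275, limma) on the log2 scale, calls that held in 8 of 12 cases in OX and 9 of 12 in WT. It had 14.7, 25.6 and 19.99 FPKM in OX Al and 7.24, 5.94 and 4.93 FPKM in OX control, and 5.78, 8.62 and 4.67 FPKM in WT Al and 1.68, 1.35 and 0.955 FPKM in WT control roots. OX was above WT in both conditions, and the interaction was only -0.25 (SE 0.36). *DTX15*, of the same family, was at 1.03 (SE 0.39), from 0.0751 to 1.15 FPKM. The galactinol synthase gene *GolS4* was at 1.19 (SE 0.66). On the lower side were the methylesterase genes *PME59* (-1.64, SE 0.72) and *PME60* (-1.46, SE 0.69), the pectin lyase-like AT3G59850 (-1.50, SE 0.77) and the anion channel gene *ALMT12* (-0.78, SE 0.38), none of which passed 3.44 FPKM in any library. The polygalacturonase-like AT2G33160 was at 0.45 (SE 1.19), and its sign turned with the pseudocount and with single libraries.

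Genes with the smallest p on the higher side were of mixed kinds and shared no list. By the naming rule they were AT5G60285, ATCG00660, *LEA18*, AT4G23670, AT3G13910, AT3G01425, *KIN2*, *KCS3*, AT2G16005 and *RTFL16*. *KIN2* (AT5G15970), a small protein induced by cold and abscisic acid, rose in OX by 1.73 on the log2 scale (adjusted p = 0.0234, limma), with 10.04, 16.9 and 24.5 FPKM in OX Al and 4.51, 3.71 and 5.47 FPKM in OX control, and 9.69, 5.24 and 8.10 FPKM in WT Al and 6.36, 7.65 and 7.6 FPKM in WT control roots. Its interaction was 1.68 (SE 0.41). *KCS3* (AT1G07720), of the family that elongates very long chain fatty acids, rose in OX by 1.52 (adjusted p = 0.0315, limma), with 4.16, 6.05 and 5.97 FPKM in OX Al and 1.47, 2.21 and 1.06 FPKM in OX control, and 0.937, 2.13 and 2.18 FPKM in WT Al and 2.05, 1.76 and 1.37 FPKM in WT control roots. The OX Al libraries were above all 9 others, and the interaction was 1.55 (SE 0.40). *LEA18* (AT2G35300), a late embryogenesis protein that accumulates in drying cells, had 2.19, 6.60 and 3.05 FPKM in OX Al and 1.38, 2.05 and 2.47 FPKM in OX control, and 0.564, 2.06 and 1.41 FPKM in WT Al and 14.1, 4.98 and 7.48 FPKM in WT control roots. The WT control level set that gene apart, with an interaction of 3.06 (SE 0.63). AT4G23670, a lipid transport family protein, rose in OX by 1.31 (adjusted p = 0.0469, limma). These OX calls held with 1 library left out in 7 of 12 cases for *KIN2*, 6 of 12 for *KCS3* and 3 of 12 for AT4G23670. AT5G60285, a leucine tRNA gene, and the plastid gene ATCG00660 rested on 0 to 6 and 1 to 12 fragments in a library, and AT5G60285 had 0 fragments in each WT Al library.

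**Figure D4:**
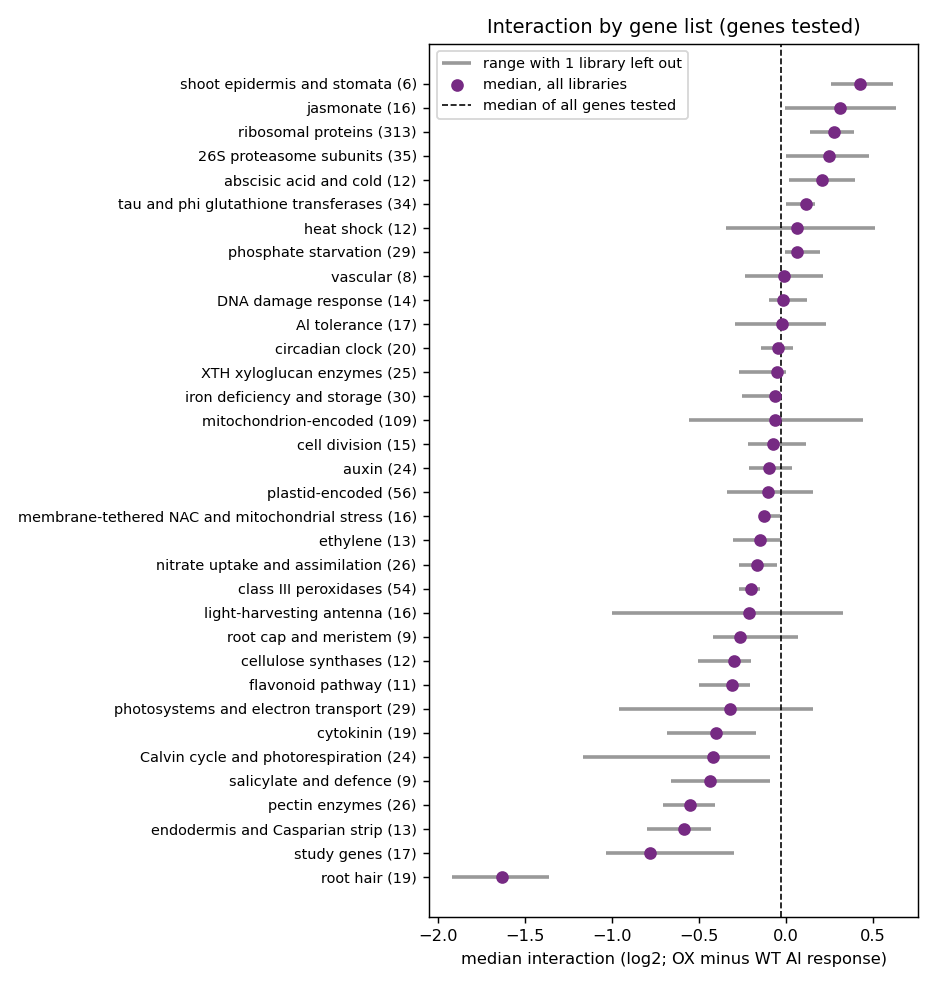
Median interaction of each gene list (points; number of genes tested in parentheses) with the range of that median when 1 of the 12 libraries is left out (grey), and the median of all genes tested (dashed). The root hair list, at -1.63, lies apart from all others, and the lists of green tissue have wide ranges. Shoot epidermis genes, at 0.43, stand for the 6 that passed the filter on low values, and their median without it was 0.05.

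The shoot epidermis list, of which 6 of 12 genes passed the filter on low values, had a median of 0.43, with these 6 above 0. Both depend on the filter: without it the median over 11 genes was 0.05, with 4 below 0. Without OX Al replicate 3 the median of the 6 was 0.26. *KCS6* (AT1G68530), which makes wax precursors, had 13.2, 11.2 and 8.58 FPKM in OX Al and 5.34, 2.32 and 2.4 FPKM in OX control, and 3.83, 10.9 and 7.68 FPKM in WT Al and 10.5, 7.62 and 4.57 FPKM in WT control roots (interaction 1.70, SE 0.57). The 11 markers of shoot epidermis and stomata in the table summed to 87.0 to 125 FPKM in OX Al and 58.5 to 72.0 FPKM in OX control, and to 68.3 to 82.8 FPKM in WT Al and 59.3 to 77.1 FPKM in WT control roots, with *PDF1* and *FDH* the most abundant and none at 0 in every library. Abscisic acid and cold genes were above 0 in 8 of 12 (median 0.21), and jasmonate genes in 12 of 16 (median 0.31), among which the storage protein gene *VSP2* ran from 0.278 to 9.14 FPKM in OX Al and from 0.0385 to 0.0816 FPKM in OX control, and from 0.0392 to 1.41 FPKM in WT Al and from 0.579 to 2.29 FPKM in WT control roots (interaction 2.68, SE 1.09). The jasmonate median was -0.01 without OX control replicate 1, with 8 of 16 below 0, and 0.64 without OX Al replicate 1. That of the abscisic acid and cold genes was 0.02 without WT control replicate 1 and 0.40 without WT control replicate 3. Without the first control replicate of both genotypes it was -0.05, with 6 of 12 below 0. Without the filter on low values it was 0.17 over 15 genes, with 7 below 0. Glutathione transferases of the tau and phi classes, which detoxify electrophiles, were above 0 in 22 of 34 (median 0.12, and 0.003 without WT Al replicate 2), with *GSTU19* at 226, 218 and 200 FPKM in OX Al and 131, 136 and 160 FPKM in OX control, and 143, 141 and 136 FPKM in WT Al and 107, 120 and 155 FPKM in WT control roots (interaction 0.44, SE 0.20).

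Photosynthesis genes had lower Al responses in OX, but on few libraries. Antenna genes were below 0 in 12 of 16 (median -0.21), photosystem and electron transport genes in 24 of 29 (-0.32) and Calvin cycle and photorespiration genes in 20 of 24 (-0.42), with 0 genes at an unadjusted p under 0.05. The mean log2(FPKM + 0.5) of the antenna genes was 2.6, 3.01 and 2.44 in OX Al and 2.21, 2.13 and 2.18 in OX control, and 2.0, 4.8 and 4.14 in WT Al and 4.23, 2.45 and 2.2 in WT control roots, so that the 3 WT libraries named above as high in green tissue markers decide the value. With 1 library left out the antenna median ran from -0.998, without WT Al replicate 1, to 0.33, without WT Al replicate 2; that of the photosystem genes ran from -0.96 without WT Al replicate 1 to 0.16 without WT control replicate 3, and that of the Calvin cycle genes from -1.17 to -0.09 without the same libraries. *GLDP1*, a subunit of glycine decarboxylase, had the smallest p of the Calvin cycle list (-0.63, SE 0.31), *PSBO2* that of the photosystems (-0.86, SE 0.75) and *LHCB4.3* that of the antenna (0.64, SE 0.44). Genes encoded in the plastid were split, with 27 above and 29 below 0 (median -0.10), and of 109 encoded in the mitochondrion 66 were below 0 (median -0.06), with ATMG00860 at -1.31 (SE 0.50) on 2 to 13 fragments in a library. The mitochondrial median turns on single libraries, with 97 of 109 below 0 (-0.56) without OX control replicate 1 and 18 of 109 (0.44) without WT control replicate 1, and the plastid median ran from -0.34 without WT Al replicate 1 to 0.16 without WT Al replicate 3.

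Protein synthesis and breakdown genes were mostly on the higher side, by small amounts in each gene. Of 313 tested nuclear genes annotated as ribosomal proteins, a list made after the values had been seen, 274 had an interaction above 0. The median was 0.28 (0.13 in OX and -0.15 in WT), and 30 had an unadjusted p under 0.05 on the higher side. Over all 20773 genes tested, 9429 were above 0 and 531 had an unadjusted p under 0.05 on that side. A pair of genes for the short ribosomal protein L41 had the smallest p. AT3G56020 had 30.2, 29.0 and 30.3 FPKM in OX Al and 20.6, 18.13 and 20.8 FPKM in OX control, and 17.2, 18.6 and 22.1 FPKM in WT Al and 19.97, 24.9 and 25.1 FPKM in WT control roots (interaction 0.84, SE 0.17), and AT3G08520 was at 0.96 (SE 0.22); reads of such near-identical copies may be shared. Of 35 subunits of the 26S proteasome, which degrades tagged proteins, 34 were above 0 with a median of 0.25 and 0 had an unadjusted p under 0.05. *PBD1* had 30.8, 29.5 and 28.9 FPKM in OX Al and 28.6, 21.1 and 27.3 FPKM in OX control, and 21.9, 25.6 and 22.8 FPKM in WT Al and 22.2, 24.2 and 34.2 FPKM in WT control roots. The size of these shifts rests on single libraries. The proteasome median was 0.0008 without OX control replicate 2, 0.07 without OX Al replicate 1 and 0.07 without WT control replicate 2, but 0.48 without OX control replicate 1 and 0.43 without WT control replicate 1. Without the first control replicate of both genotypes it was 0.64, and 18 of the 35 had an unadjusted p under 0.05. The ribosomal protein median was 0.14 without OX control replicate 2, with 15 genes at an unadjusted p under 0.05, 0.39 without OX control replicate 1, with 90, and 0.48 without the first control replicate of both genotypes, with 148.

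Gene length moved with the interaction across the whole table, and it bears on the ribosomal protein genes, which are short. The median interaction was 0.23 among the 832 genes over 500 and up to 750 bp, 0.18 for 750 to 1000 bp, 0.07 for 1000 to 1500 bp, -0.02 for 1500 to 2000 bp, -0.09 for 2000 to 3000 bp and -0.17 for the 2430 genes over 3000 bp, of which 366 were above 0. The shortest class, up to 500 bp, was at 0.08. Between genes up to 1000 bp and genes over 3000 bp, the median deviation from a gene's mean over the libraries differed by 0.14, 0.16 and 0.17 on the log2 scale in OX Al and by -0.10, -0.08 and 0.13 in OX control, and by -0.21, -0.18 and -0.07 in WT Al and -0.07, -0.01 and 0.17 in WT control roots. Short genes were thus relatively higher in each OX Al library and lower in each WT Al library, with both control groups spread across 0. With a smooth trend on length taken out of each library, an alternative chosen after seeing the data, the ribosomal protein median was 0.14, the proteasome median 0.21 and the root hair median -1.68.

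**Figure D5:**
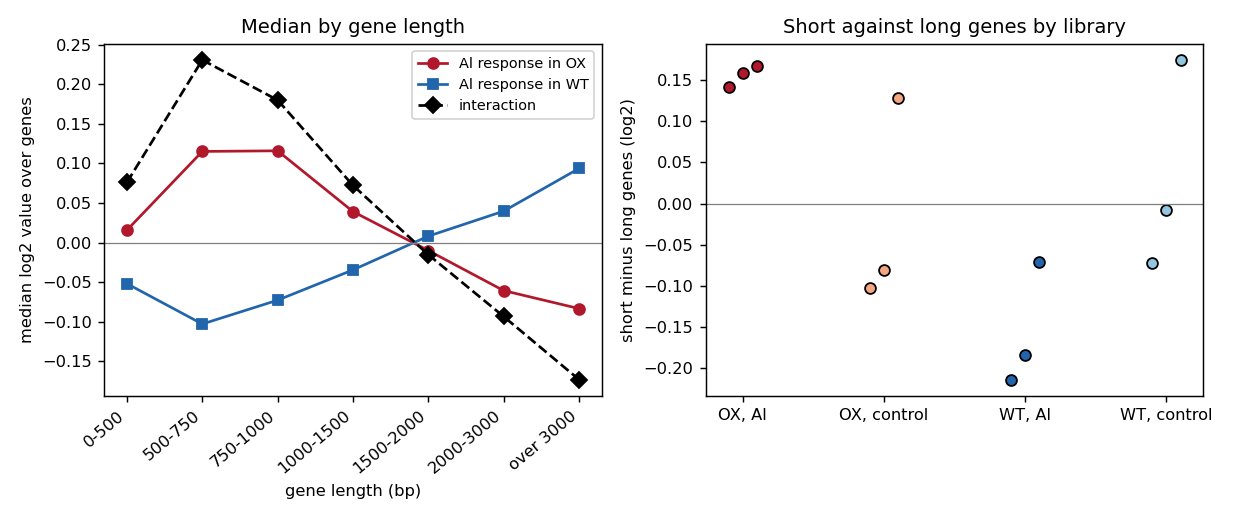
Left, median log2 Al response in OX and in WT and median interaction by gene length; the interaction runs from 0.23 at 500 to 750 bp to -0.17 over 3000 bp. Right, for each library, the median deviation of genes up to 1000 bp minus that of genes over 3000 bp, which is 0.14 to 0.17 in OX Al and -0.21 to -0.07 in WT Al roots.

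Besides the jasmonate and the abscisic acid and cold lists given above (medians 0.31 and 0.21), hormone, nutrient and growth lists had medians from -0.44 to 0.06. Cytokinin genes were below 0 in 16 of 19 (median -0.40), with the synthesis gene *IPT7* at -1.41 (SE 0.60), ethylene genes in 11 of 13 (-0.15, *ACS11* -0.94), auxin genes in 14 of 24 (-0.10, *IAA1* -1.02) and salicylate and defence genes in 8 of 9 (-0.44, *EDS1* -0.54). Nitrate uptake and assimilation genes were below 0 in 20 of 26 (-0.17), with the plastid glutamine synthetase gene *GS2* at -0.77 (SE 0.33), and 5 of them fell with Al in OX, where 0.578% of all genes did. Phosphate starvation genes were above 0 in 19 of 29 (0.06), among which the non-coding RNA *AT4* was at 1.3 (SE 0.51), and iron genes below 0 in 17 of 30 (-0.06, *IRT2* -1.16). The flavonoid list was below 0 in 8 of 11 (-0.31, *PAL1* -0.48), that of membrane-tethered NAC factors and mitochondrial stress in 10 of 16 (-0.13, *BCS1* -0.72) and that of root cap and meristem in 6 of 9 (-0.26, *NAC070* -0.97). The DNA damage list was below 0 in 8 of 14 (-0.01, *SMR7* 0.70), cell division in 8 of 15 (-0.07, *MCM2* -0.40), the clock in 12 of 20 (-0.04, *PRR5* -0.24), vascular genes in 5 of 8 (-0.01, *WOL* -0.41) and heat shock genes in 6 of 12 (0.06, *HSP17.6C* 0.36). Most of these medians moved by over 1.5 times with 1 library left out, that of cytokinin genes to -0.68 without WT Al replicate 2 and -0.17 without WT Al replicate 3, of salicylate genes to -0.66 without WT control replicate 1 and -0.09 without WT control replicate 3, of ethylene genes to -0.31 without OX control replicate 3 and -0.03 without WT Al replicate 2 and of nitrate genes to -0.27 without WT Al replicate 2 and -0.05 without WT Al replicate 3. The auxin, phosphate, root cap, DNA damage, cell division, clock, vascular and heat shock medians took both signs. Over all genes tested 54.6% were below 0, and the auxin, iron, DNA damage, cell division, clock and heat shock counts lay near that share. The gene given with each list is its member with the smallest interaction p.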

How the data were processed

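RNA-seq of roots was analysed in 12 libraries, whose titles gave genotype and treatment. The authors aligned reads to TAIR10 with HISAT2, counted them with HTSeq (0.6.0 in the processing notes) and deposited FPKM per gene and library, which were used unscaled. FPKM depend on gene length and library total. Fragments within 0.0001 of whole numbers could be recovered for 100% of 25872 genes, and of the transcript lengths under 2000 bp they imply, 98.8% lay within 0.01 bp of a whole number. The smallest whole numbers that fit were taken, so a gene's fragments are known up to a common factor. The study's DEGseq calls were not used.

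Genes that reached 0.5 FPKM in 3 or more libraries were fitted with limma 3.58.1 in R 4.3.3 (variance trend) on log2(FPKM + 0.5) with 4 group means, and p-values were adjusted by Benjamini-Hochberg. Calls took the study's limits, an adjusted p no larger than 0.05 and a log2 size no smaller than 1. The test was tested on simulated data. Annotation and sequences are from RefSeq TAIR10.1, which held 25579 identifiers; its nuclear coordinates were used. Tables and figures used Python 3.11.15.

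The comparison, the gene lists and the naming rule were chosen with earlier results of these data known, and lists were described without a test. Named were the 10 genes with the smallest interaction p in each direction among those with a log2 size of at least 1 and a mean FPKM of at least 1, the 6 smallest p and 3 highest levels among the Al tolerance and study genes, and the smallest p of every other list. The other root hair genes, *ALMT1*, *ALS3*, *MATE*, *CASP1*, *PER64*, *GolS4* and the ribosomal protein genes were named after their values were seen. Alternatives were pseudocounts of 0.1 and 1, no filter, median-ratio scaling, quantile normalization, keeping genes by a mean FPKM of 1, a replicate block, no variance trend, robust moderation, voom on recovered fragments, the adjusted p alone and leaving out libraries; removal of a length trend was added after seeing the data.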

Additional observations from a re-analysis of the deposited data

Results flagged for a closer look

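In 6 of the named genes every OX Al library lay on one side of every OX control library and every WT Al library on the other side of every WT control library. With a lower value with Al in OX and a higher one in WT these were AT2G01275, a RING/FYVE/PHD zinc finger gene (interaction -1.42 on the log2 scale), *XTH13* (-1.98), *LAC3* (-1.26) and *SHV2* (-1.84). With a higher value with Al in OX and a lower one in WT they were AT3G13910, which encodes a protein of unknown function (1.05), and AT3G08520, a ribosomal protein L41 gene (0.96). The difference itself was tested by the interaction term and was not called in any of them (limma, adjusted p 0.913 to 0.935). All 6 were named for a small interaction p or after their values were seen, so the pattern is partly fixed by that choice. Its share over all genes tested is not given here.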

How the results depend on the processing

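With 3 libraries in a group the interaction of a typical gene is known to 0.26 on the log2 scale, which limits what could be called. The interaction count was 0 under all alternatives but 2, with 1 gene without the filter on low values and 1 without a variance trend. In both cases it was an unannotated non-coding RNA with 0 fragments outside the OX Al libraries. Its fragments were equal in the OX Al libraries and were read back as 1 in each, the smallest whole number that fits. Leaving out each library in turn gave 0 in every case. The count of calls in OX was 3 to 490 with 1 library left out and 91 without the first control replicate of both genotypes; in WT it was 0 to 152, 141 without those replicates, and 38 without the filter. The replicate block gave 0 interaction calls, 213 in OX and 85 in WT; residual correlations between same-numbered libraries were -0.247 to 0.286, and 8 of 12 libraries had their best match outside their group in a library with their own number, and the labels name no shared batch, so the numbers were not taken as pairs. Of single genes, AT2G33160 turned to -0.00603 with a pseudocount of 0.1, -0.26 with voom and -1.08 without both first control replicates, *HAK5* to 0.14 and *MATE* to 0.10 without those, and *MATE* to 0.00717 with median-ratio scaling and 0.094 with the length trend removed. With 1 library left out, signs turned for AT2G33160 (-0.38 to 0.98), *HAK5* (-1.48 to 1.19), *MATE* (-1.07 to 1.15), *ALMT1* (-1.22 to 0.50), *ALS3* (-0.38 to 1.05), *WRKY46* (-0.73 to 0.19), *STOP2* (-0.27 to 0.055), *POP2* (-0.38 to 0.064) and *HSP17.6C* (-0.075 to 0.91). In the other 2082 cases the sign of a named gene's interaction was kept. The causes were not tested.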
